A study of Mus musculus with 3 samples.

Results

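Interferon-stimulated effector genes encode the proteins that act downstream of interferon receptors to limit viral replication. The set described here holds 47 mouse gene symbols chosen by name as known members of this class, with earlier results of these data known. The shares set against all genes below therefore describe the list and are not a blind comparison. Of the 47 symbols, 46 were found once each in both deposited gene tables, out of 18287 genes listed. Epsti1 was not listed. No minimum read count was applied to the 46 genes, and none had a count of 0 in any library, the lowest being 8 reads.

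Polyadenylated RNA came from a purchased culture of mouse aortic endothelium, the lining of the vessel. There were 3 libraries, 1 for each condition. Cells of the control had neither agent, cells of the second condition (GO) had glucose oxidase at 5 mU/mL for 30 min, and cells of the third (GO plus Et2HOBA, also called both agents) had the same exposure and 0.2 mM ethyl-2-hydroxybenzylamine for 24 h. Glucose oxidase makes hydrogen peroxide from glucose, and Et2HOBA scavenges reactive lipid aldehydes called isolevuglandins. A library with Et2HOBA alone was not analysed here, and the labels used here give neither the order of the agents nor the time from exposure to harvest. The strain, age and sex of the source animals and the passage of the cells are also not given in the sources used here.

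Interferons are secreted proteins that bind receptors on the cell surface. The receptors activate the kinases JAK1 and TYK2, which phosphorylate transcription factors that include STAT2. The active complex, which also holds IRF9, binds the interferon-stimulated response element, a short repeat of GAAA found in the promoters of many antiviral genes. Endothelial cells carry the receptors and keep a low tonic level of the pathway without infection.

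With 1 library per group there was no replicate check, and no test between conditions was possible. Each fold difference below is a ratio of normalized read counts with an exact Clopper-Pearson interval at 95%, which covers counting error on the reads of the libraries compared and nothing else. Read counts were divided by size factors computed over all 3 libraries. Log2 ratios were taken after adding 10 normalized counts, and a gene was counted as past the limit when its log2 ratio reached 1 in either direction. The GO read counts were recovered from the deposited log2 differences.

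Summed over the listed genes, depth was 35969965 reads in control, 35005089 in GO and 40212212 in GO plus Et2HOBA. The GO library stood apart in its pseudogenes: 841 of 2110 processed pseudogenes were past the limit on the low side against control, compared with 52 in the library that also had Et2HOBA. Of the 46 members, 44 are annotated as protein-coding and Mx1 and Mx2 as polymorphic pseudogenes. Reads shared with other genes could matter for some of them, and 24 of the 46 shared at least 1 stretch of 50 bases of their longest transcript with another annotated gene. The share was over 20% for 5 genes: Oas1a (57.6%), Ifit3 (51.2%), Ifitm2 (48.5%), Ifit3b (45.0%) and Herc6 (23.8%). The summed level, the counts past the limit and the medians of the set are therefore also given for the 22 members that shared none.

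Promoter sequences are shown first because the response element described above lies in promoters. RefSeq promoter sequences of build GRCm38.p6, from 250 bases before to 50 bases after each transcription start, matched 37 of the 46 members by symbol. The core of the response element was searched on both strands as GAAA, any 2 bases, then GAAA, which reads TTTC, any 2 bases, then TTTC on the other strand. It was found in the promoters of 15 of these 37 genes (40.5%), against 3.99% of 27025 genes with a promoter of the same length. Counted by promoter, it was in 17 of 46 member promoters, since 7 members had more than 1, and in 3.44% of 32851 promoters overall. The windows below lie upstream of the start and outside every exon of GENCODE M21. Capitals mark every base of a response element core, and the letters run 5′ to 3′ on the strand of the gene. They are shown for a choice of the members with the element, and for Oasl2, which had the lowest ratio with both agents among matched members without it.
Isg15, chr4:156200860-156200911, minus strand: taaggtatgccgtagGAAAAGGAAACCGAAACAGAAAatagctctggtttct
Ifit1, chr19:34640770-34640828, plus strand: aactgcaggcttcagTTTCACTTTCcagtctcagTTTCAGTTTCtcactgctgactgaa
Ifit3, chr19:34583358-34583431, plus strand: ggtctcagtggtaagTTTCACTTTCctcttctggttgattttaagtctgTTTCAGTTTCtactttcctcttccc
Bst2, chr8:71537572-71537617, minus strand: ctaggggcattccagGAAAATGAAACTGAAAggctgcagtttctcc
Ddx60, chr8:61928053-61928086, plus strand: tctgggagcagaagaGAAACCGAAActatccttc
Rsad2, chr12:26456548-26456587, minus strand: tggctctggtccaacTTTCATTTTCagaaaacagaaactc
Oasl2, chr5:114896834-114896933, plus strand: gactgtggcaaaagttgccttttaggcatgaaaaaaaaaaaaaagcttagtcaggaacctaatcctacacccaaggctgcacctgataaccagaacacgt

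In Isg15 the window held 3 overlapping cores in a row. In Ifit1, Ifit3 and Bst2 it held 2. Another Ddx60 core, at position -53 from the start, is not shown because the bases around it overlap an annotated exon. The corresponding window of Ifit3b, at chr19:34607754-34607827, was identical to that of Ifit3 over all 74 bases. The Oasl2 line shows the 100 bases before the start, where these letters did not occur, which says nothing of binding by other sequences.

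**Figure D1:**
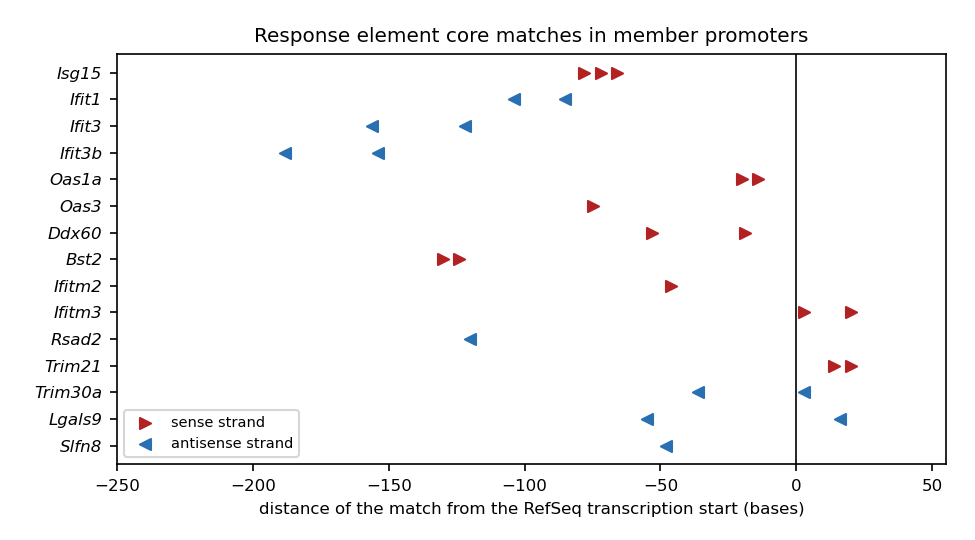
Positions of the response element core (GAAA, any 2 bases, GAAA) in the RefSeq promoters of the 15 members that hold it. The horizontal axis is the distance of the first base of each match from the transcription start in bases, and the arrowheads give the strand relative to the gene. Of 21 matches that begin upstream of a start, 13 lie within 100 bases of it.

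As a group, the members took a smaller share of all reads in each treated library than in control. Their summed reads were 198811 in control, 113320 after GO and 88537 with GO plus Et2HOBA. As reads scaled to the library total (RPM), this was 5527 (95% interval 5503 to 5551), 3237 (3218 to 3256) and 2202 (2187 to 2216). Over the 22 members without a shared stretch it was 2722, 1550 and 1142 RPM, so the order of the libraries was the same. In a culture sequenced in bulk, fewer expressing cells and less RNA per cell cannot be told apart.

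Against control, 44 of the 46 members were lower after GO, as were 51.1% of all listed genes and 46% of protein-coding genes. Past the limit on the low side were 15 members (32.6%), against 8.6% of all listed genes and 4.76% of protein-coding genes. No member was past the limit on the high side, where 4.07% of all listed and 4.53% of protein-coding genes lay. The median log2 ratio of the members was -0.80, against -0.01 for all listed genes and 0.04 for protein-coding genes. The lowest ratio was that of Isg15 at -1.45 and the highest that of Ifi27 at 0.30. For 43 members the counting interval of the fold lay wholly below 1, which held for 30.6% of all listed and 29.8% of protein-coding genes. An interval narrows with reads, and 43 of the 46 members had a mean normalized count of at least 100. Background shares of intervals and of genes past the limit, here and in the next comparisons, were not matched for depth. By the log2 differences of the authors' deposited table, 6 members were past the limit and the median was -0.65.

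With GO plus Et2HOBA, 44 of the 46 members were lower than control, as were 50% of all listed genes and 49.9% of protein-coding genes. Past the limit were 35 members (76.1%), where the background share was 8.04% of all listed genes and 9.3% of protein-coding genes. The median log2 ratio of the members was -1.51, against -0.00 for all listed genes. The range ran from -3.23 for Ddx60 to 0.48 for Tor3a. The counting interval lay wholly below 1 for 43 members, against 30.8% of all listed and 36.4% of protein-coding genes. No member passed the limit on the high side, compared with 6.66% of all listed and 7.33% of protein-coding genes. This comparison and the preceding one use the same control library.

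Between the treated libraries, 43 of the 46 members were lower with Et2HOBA, as were 50% of all listed genes and 53.2% of protein-coding genes. Past the limit were 13 members (28.3%), where the background share was 2.15% of all listed genes and 2.35% of protein-coding genes. The median log2 ratio of the members was -0.67, against 0.00 for all listed genes. Counting intervals lay wholly below 1 for 41 members and wholly above 1 for Tor3a alone, against 25% of all listed and 30.5% of protein-coding genes wholly below 1. None of the members was higher past the limit, against 6.39% of all listed and 0.971% of protein-coding genes. Over the 22 members without a shared stretch, 7, 15 and 4 were past the limit in the comparisons in the order given, and the medians were -0.88, -1.45 and -0.59.

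**Figure D2:**
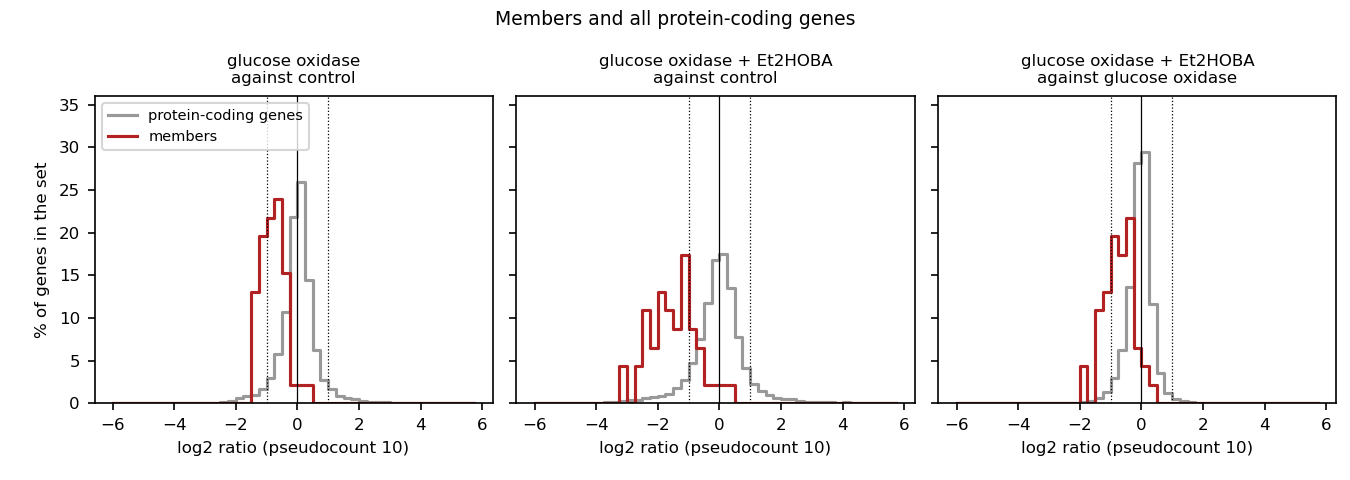
Distribution of log2 ratios (pseudocount of 10 normalized counts) for the 46 members and for 13285 protein-coding genes in each of the 3 comparisons, in bins of 0.25, as a percent of each set. Dotted lines mark the limit of 1 log2 unit. Most members lie to the left of 0 in each panel, with medians of -0.80, -1.51 and -0.67.

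Markers of cell type were read beside these counts. Each of 12 endothelial markers had at least 1688 reads in each library. Of the 12, 11 were lower than control after GO and 10 with both agents, against 51.1% and 50% of all listed genes. Past the limit on the low side were 4 (33.3%) after GO and 6 (50%) with both agents. The share of protein-coding genes there was 4.76% and 9.3%, and that of the members 32.6% and 76.1%. The summed level of the 12 markers was 10840, 6676 and 5670 RPM in control, GO and GO plus Et2HOBA. The median log2 ratios of these markers were -0.59 and -1.01 against control. Of 9 leukocyte and macrophage markers 4 were listed, at 234, 490 and 694 RPM, nearly all of it from Cd68, while Csf1r and Fcer1g had at most 12 reads. Lyz2, the other one listed, was lower in both treated libraries, with 186, 76 and 86 reads. The defining genes Ptprc, Adgre1, Itgam, Cd3e and Tyrobp were not listed. Of 9 smooth muscle and fibroblast markers 6 were listed, at 5.34, 41.7 and 74.7 RPM, mostly from Pdgfra, and Acta2 had at most 18 reads. The part of these shifts in the values of the members was not tested.

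Reads are given below in the order control, GO, GO plus Et2HOBA. The ISG15 system was lower throughout. ISG15 is a ubiquitin-like protein that UBA7 activates, UBE2L6 carries and HERC6 ligates to targets, and USP18 removes it and also restrains the interferon receptor. Isg15 (ENSMUSG00000035692.7, chromosome 4, 156199455 to 156200796) had 1444, 490 and 267 reads. Its level was 0.363 of control after GO (95% interval 0.327 to 0.402) and 0.184 with both agents (0.161 to 0.2095).
Uba7 had 2126, 1336 and 584 reads. Between the treated libraries it was at 0.406 (0.368 to 0.448), the lowest ratio of the 5 genes there. Herc6, which shares exonic sequence with the overlapping gene Gm45193, had 498, 326 and 181 reads. All 5 genes were past the limit with both agents, with log2 ratios from -2.40 to -1.42, against 9.3% of protein-coding genes. After GO alone 3 were past it, against 4.76% of protein-coding genes. Ube2l6 had 772, 326 and 257 reads. Usp18, the removal enzyme, had 1276, 514 and 274, so conjugating and removing enzymes were both lower.

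The IFIT genes encode RNA-binding proteins that block translation of foreign RNA, and they sit next to each other on chromosome 19 (34550694 to 34650009). Ifit2, with the most reads of the family, had 6040 in control, 3068 after GO and 2273 with both agents. Ifit1 had 4679, 2149 and 841 reads, and Ifit3b had 2708, 1201 and 481. After GO the 4 genes lay close together, at log2 ratios from -1.07 to -0.88. They parted between the treated libraries, with Ifit2 at 0.689 of the GO level (0.652 to 0.727) and Ifit1 at 0.364 (0.336 to 0.394). Ifit3 and Ifit3b share long stretches of sequence, so the split of their reads is uncertain. Their sum had 8285, 3950 and 1671 reads, which was 0.51 of control (0.491 to 0.529) and 0.2 of control (0.19 to 0.211).

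The oligoadenylate synthetases make the second messenger that activates RNase L, and the OASL proteins are their close relatives. Oas1a had 1594, 819 and 569 reads, and shares 57.6% of its stretches with another gene, all of them with Oas1g. Oasl2 had 1504, 582 and 162 reads. It was at 0.414 of control after GO (0.375 to 0.456) and 0.107 with both agents (0.0904 to 0.126).
Its neighbour Oasl1, which begins 11005 bases beyond the end of Oasl2 on chromosome 5, differed from it. Oasl1 had 109, 83 and 95 reads, and its ratio with both agents was 0.866 (0.651 to 1.15), so no difference from control was detectable at this depth. Between the treated libraries its log2 ratio was 0.08, and -0.00 with total-count scaling. The other two genes of the family, Oas2 (684, 280 and 101 reads) and Oas3 (229, 155 and 97 reads), had log2 ratios of -2.65 and -1.17 with both agents.

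Nucleases, editors and helicases acting on RNA and DNA ranged from -3.23 to -0.31 on the log2 scale with both agents. Ddx60, a helicase that aids sensing of viral RNA, had 599 reads in control, 225 after GO and 55 with both agents. Its level was 0.401 (0.343 to 0.469) and 0.0912 of control (0.0679 to 0.12), the lowest ratio of the set with both agents.
Helz2, a helicase-domain coactivator and the most abundant of this role by reads, had 11203, 6042 and 5222. Isg20, an RNA exonuclease, had 252, 179 and 203 reads, and the ratio between the treated libraries was 1.05 with an interval from 0.858 to 1.30. Its log2 ratio there was 0.07, and -0.02 with total-count scaling. Samhd1, Adar and Znfx1 were lower than control by less than 1 log2 unit with both agents, at -0.96, -0.65 and -0.95. Adar, which edits adenosine to inosine in double-stranded RNA, has exons that overlap Chrnb2 on the opposite strand over 16.8% of its exonic length, and whether reads were counted by strand is not given in the sources used here.

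**Figure D3:**
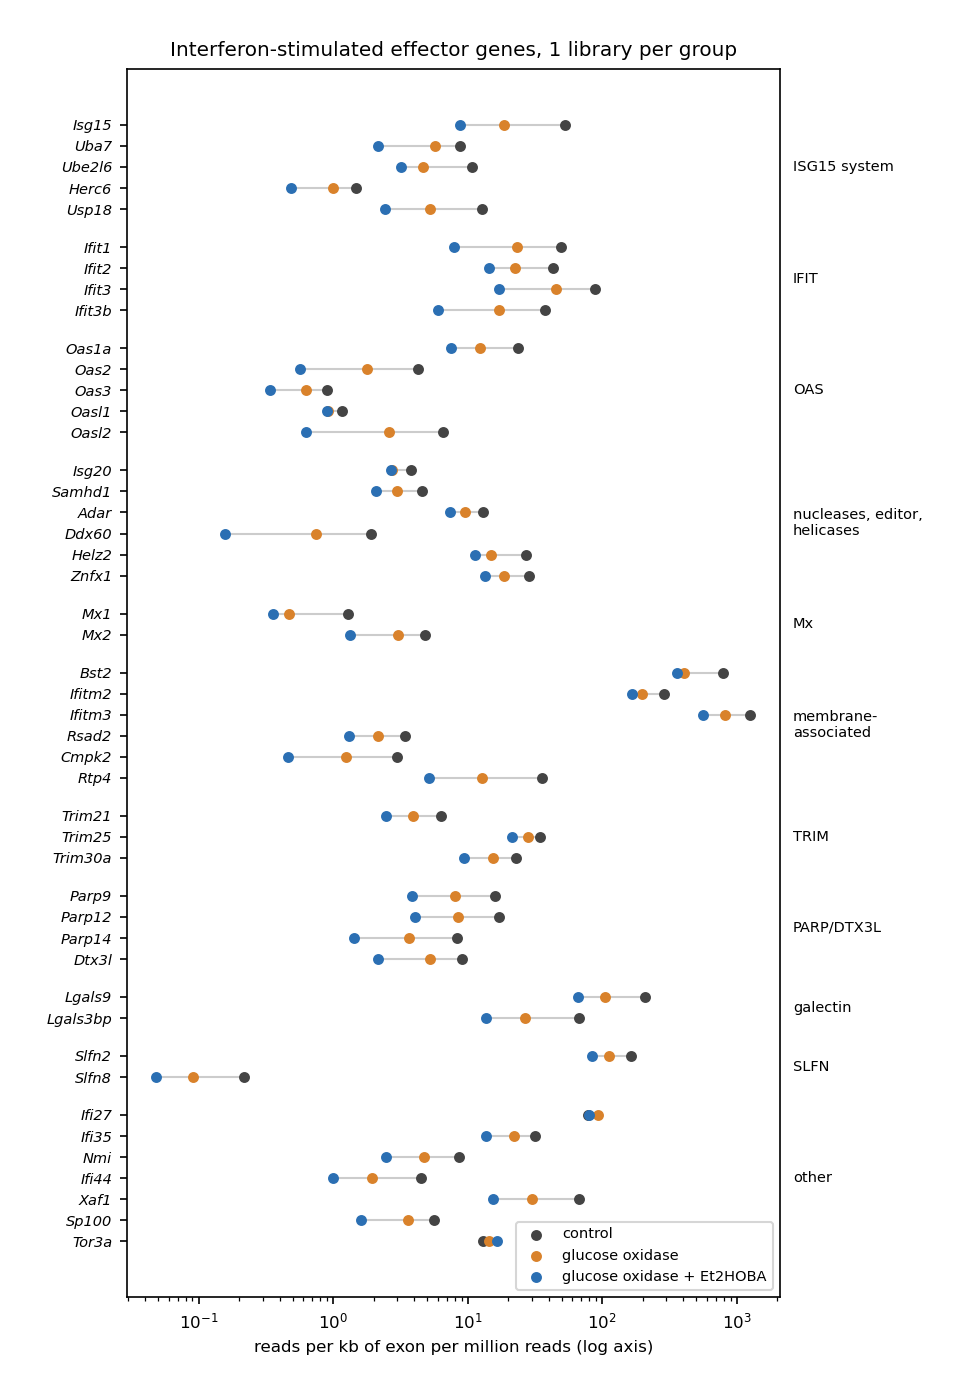
Level in RPKM, reads scaled by exon length and library total (log axis), for the 46 members, ordered by role, with 1 point per library. Ifitm3 and Bst2 are the most abundant members, Slfn8 the least, and the control point lies to the right of both treated points in 44 genes, Ifi27 and Tor3a being the exceptions.

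The Mx GTPases, which trap viral nucleoproteins, were among the less abundant members. Mx1 had 175, 62 and 54 reads, and Mx2 had 630, 384 and 193. With both agents they had similar ratios, 0.307 (0.222 to 0.418) for Mx1 and 0.304 (0.258 to 0.358) for Mx2. After GO alone Mx1 was at 0.379 (0.279 to 0.509) and Mx2 at 0.652 (0.572 to 0.741), so these intervals did not overlap. The gap depended on the scale. Their log2 ratios were -1.27 and -0.61, and the authors' deposited values were -0.63 and -0.46.

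The most abundant members were membrane-associated factors. Ifitm3, which hinders fusion of viruses with endosomes, had 30742, 19566 and 15291 reads. Its RPKM level (reads scaled by exon length and library total) was 1261, 824 and 561, the highest of the set in each library. Bst2 (tetherin), which holds budding virus at the cell surface, had 25480, 12899 and 13108 reads.
Bst2 was at 0.541 of control after GO (0.530 to 0.553) and 0.511 with both agents (0.5005 to 0.522). Between the treated libraries its log2 ratio was -0.08 (fold interval 0.922 to 0.968), and its promoter is among those shown above. Ifitm2, with 6778, 4494 and 4420 reads, had a log2 ratio of -0.13 there, and 48.5% of its stretches are shared. Rtp4, a receptor transporter protein with antiviral activity, had 2745, 957 and 444 reads and the lowest ratio of this role with both agents, at 0.161 of control (0.145 to 0.178).
Rsad2 (viperin) and Cmpk2, which make and supply a nucleotide that terminates viral RNA synthesis, are separated by 12751 bases on chromosome 12. Rsad2 had 532, 325 and 228 reads, and Cmpk2 had 445, 181 and 77. With both agents Rsad2 was at 0.426 of control (0.363 to 0.498) and Cmpk2 at 0.172 (0.133 to 0.219), so the counting intervals of these neighbours did not overlap.

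The TRIM ubiquitin ligases had a median log2 ratio of -0.53 after GO and -1.12 with both agents. Trim25, which activates the RNA sensor RIG-I, had 7131, 5665 and 4915 reads, and log2 ratios of -0.24 and -0.55 against control. Trim21, an intracellular antibody receptor, had 849, 507 and 368 reads and reached -1.19 with both agents. No TRIM gene of the set was past the limit after GO alone, where 4.76% of protein-coding genes were, so 3 genes are too few to differ from that share.

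The ADP-ribosylation genes lay in a narrow range. PARP9 and DTX3L form a complex that joins ADP-ribosylation to ubiquitination, and PARP14 modifies proteins of interferon signalling. Parp9 had 2807, 1367 and 751 reads, Dtx3l had 1885, 1046 and 500, and Parp14 had 2801, 1185 and 534. With both agents the 4 genes of the role had log2 ratios from -2.38 to -1.90. Parp9 and Dtx3l lie head to head on opposite strands, and their exons overlap over 458 bases, so reads there could count for either if strand was not used. Parp14 lies on the same part of chromosome 16 (35832874 to 35972605), whereas Parp12, with the same ratio as Parp9 within the counting error, lies on chromosome 6.

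The secreted lectin galectin-9 and the galectin-binding protein LGALS3BP, were both lower as well. Lgals9 had 15885, 7789 and 5686 reads. Lgals3bp had 6879, 2643 and 1565 reads, and was at 0.411 of control (0.393 to 0.430) and 0.226 of control (0.214 to 0.239). The Schlafen gene Slfn2 had 9786, 6550 and 5661 reads. Slfn8 had 32, 13 and 8 reads, and a difference between the treated libraries was not detectable at this depth (0.572, 0.206 to 1.49).

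Of the remaining members, 2 went against the rest. Ifi27, a mitochondrial and nuclear-envelope protein, had 4149 reads in control, 4781 after GO and 4689 with both agents. It was at 1.23 of control (1.18 to 1.28) and 1.12 of control (1.08 to 1.17). Tor3a, an ATPase of the endoplasmic reticulum, had 1824, 1949 and 2573 reads and was at 1.14 of control (1.07 to 1.22) and 1.40 of control (1.32 to 1.49).
In the authors' deposited table for GO Ifi27 had the highest value of the set, 0.29, and in that for GO plus Et2HOBA Tor3a had, at 0.47. These values rest on the same counts as the folds, so they are not a separate check. The other five of this role, Xaf1, Ifi44, Ifi35, Nmi and Sp100, were lower in each comparison, with log2 ratios from -1.98 to -1.05 with both agents. Xaf1, a pro-apoptotic protein that antagonizes XIAP, had 11267, 4978 and 2923 reads. Ifi44 had 994, 420 and 245 reads and the lowest ratio of the role with both agents, at 0.245 of control (0.212 to 0.282).

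**Figure D4:**
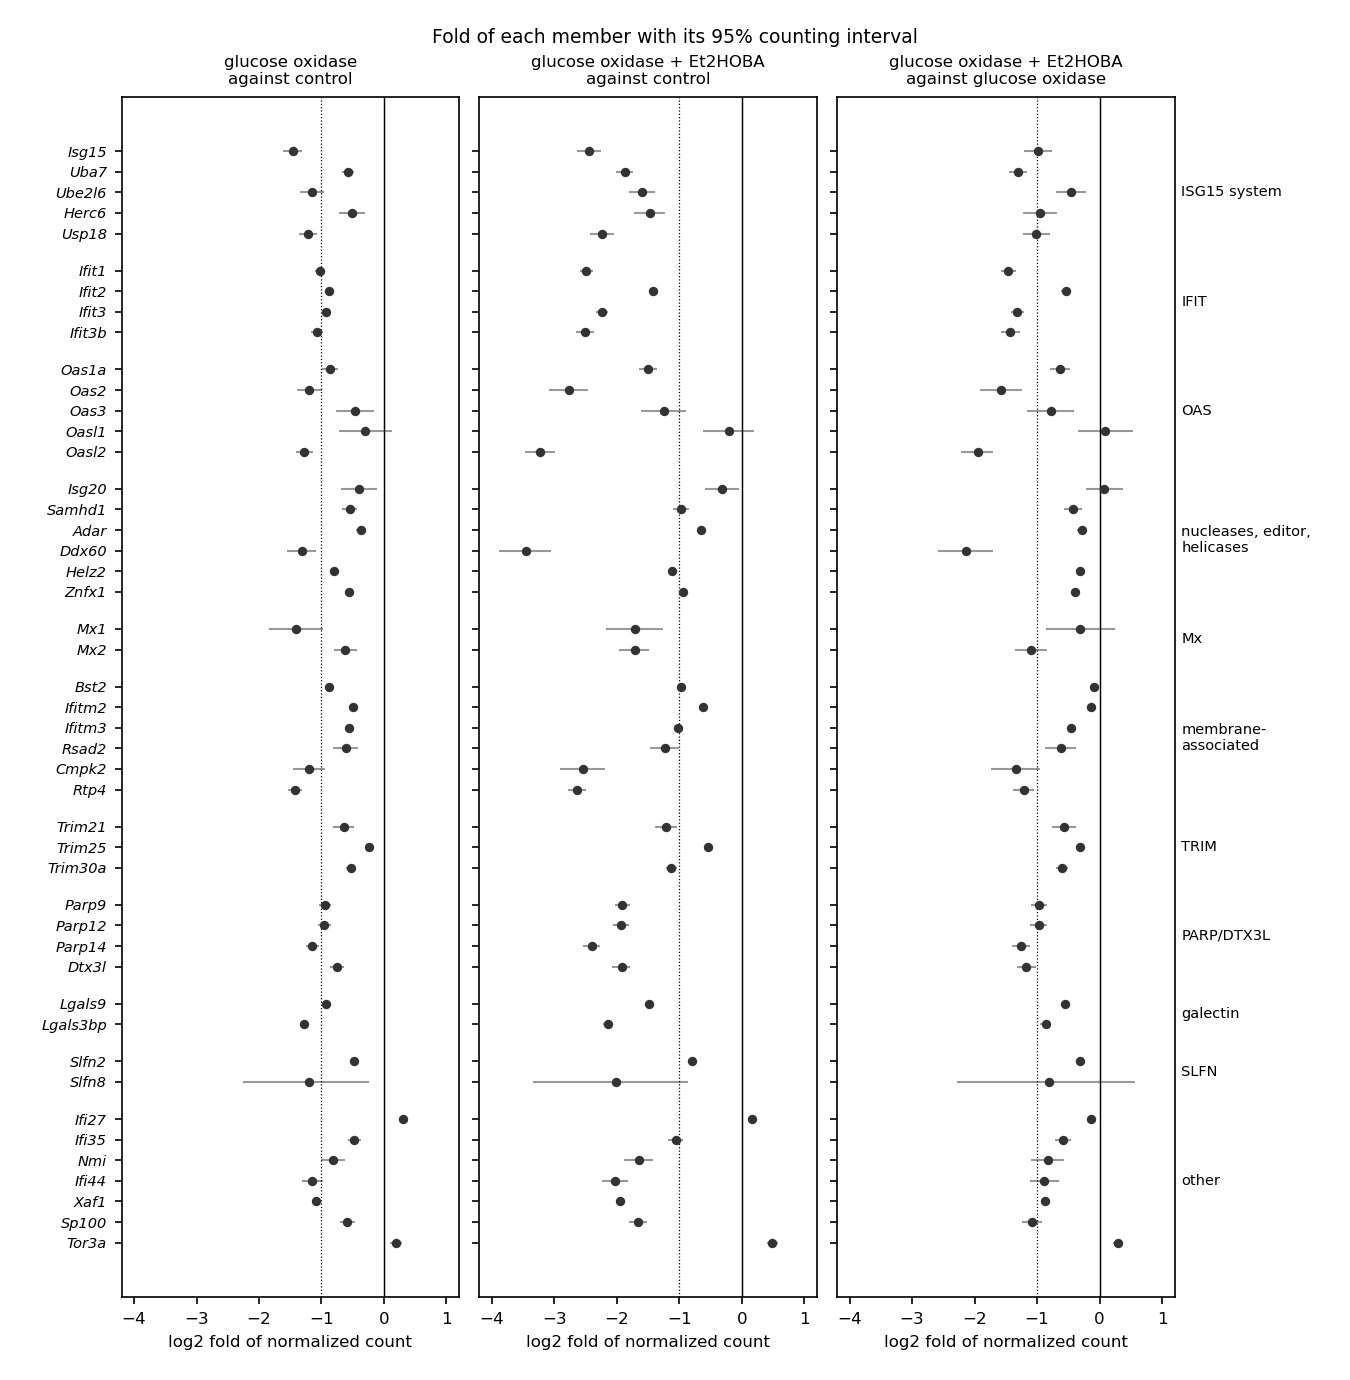
Log2 fold of normalized counts, without a pseudocount, for each of the 46 members in the 3 comparisons, with 95% counting intervals. The solid line marks equal levels and the dotted line 1 log2 unit lower. Ddx60 and Oasl2 lie farthest left with both agents, and Ifi27 and Tor3a lie right of 0 against control.

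Abundance and promoter content were set beside the ratios. Across the 46 genes, the correlation of the log2 ratio with the log2 level per kilobase in control was r = 0.02 after GO and 0.11 with both agents, given as a description because the genes share the same libraries. The 15 members with the core had medians of -0.86 after GO and -1.21 with both agents, and the 22 without it had -0.67 and -1.49.
The core of the gamma-activated site, TTCNNNGAA, a sequence of interferon gamma responses, was searched on both strands and was in the promoters of 8 of 37 members (21.6%), against 9.55% of all genes with a promoter. Oas1a, Bst2 and Ifitm3 held both motifs, and in Bst2 and Ifitm3 matches of the motifs shared bases.

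Genes of the interferon pathway (ligands, receptors, kinases, transcription factors and feedback inhibitors) were compared over 24 listed genes. Of these 24, none was past the limit on the low side after GO, against 8.6% of all listed and 4.76% of protein-coding genes. For 24 genes, finding none is close to the protein-coding share. With GO plus Et2HOBA 5 of them (20.8%) were, against 8.04% of all listed and 9.3% of protein-coding genes: Irf7, Irf1, Irf9, Ifne and Ptpn6. Ifne and Ptpn6 (8.33%) were also lower past the limit between the treated libraries, against 2.15% of all listed and 2.35% of protein-coding genes. On the high side Irf5 and Socs3 were past it against control in each, where 4.07% (GO) and 6.66% (GO plus Et2HOBA) of all listed genes lay. Of protein-coding genes it was 4.53% and 7.33%. For 24 genes, 2 on the high side (Irf5 and Socs3) are close to these shares. In the authors' deposited table neither reached the limit after GO (Irf5 0.76, Socs3 0.82), and with both agents Ifne (-0.98) and Socs3 (0.98) fell short of it. The medians were -0.13 and -0.18 against control, and -0.06 between the treated libraries.
Ligand transcripts were scarce. Ifnb1, the interferon beta gene, had 5, 0 and 0 reads, too few to place a difference, since a count of 0 allows up to 3 reads. Ifne, interferon epsilon, had 46, 22 and 6 reads.
The receptor subunits differed from each other. Ifnar1 had 10093, 6343 and 6170 reads and was at 0.672 of control (0.651 to 0.693) and 0.607 of control (0.588 to 0.627). Ifnar2 had 2040, 1886 and 2268 reads and was at 0.988 of control (0.928 to 1.05) and 1.105 of control (1.04 to 1.17). The latter log2 ratio of 0.14 turned to -0.01 with total-count scaling.

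Among these transcription factors Irf7 had the lowest ratio with both agents. Irf7, the factor that amplifies interferon production, had 1250, 624 and 360 reads and log2 ratios of -0.90 and -1.78. Irf9, the DNA-binding partner of STAT2, had 1505, 920 and 717 reads, at 0.654 of control (0.601 to 0.710) and 0.473 of control (0.433 to 0.518).
Stat2 had 4498, 3559 and 2836 reads and stayed within the limit, at -0.24 and -0.67. Irf1 had 1145, 845 and 452 reads, and its log2 ratios were -0.34 and -1.33.
In the other direction, Irf5 had 12, 78 and 108 reads and was 6.95-fold control after GO (3.76 to 14.02) and 8.94-fold with both agents (4.92 to 17.8). Of the feedback inhibitors, Socs1 had 324, 232 and 197 reads. Socs3, which mainly restrains receptors of the interleukin-6 family, had 194, 437 and 450 reads and was higher than control by 1.22 and 1.16 log2 units. Ptpn6 had 97, 49 and 16 reads and a log2 ratio of -2.03 with both agents.

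**Figure D5:**
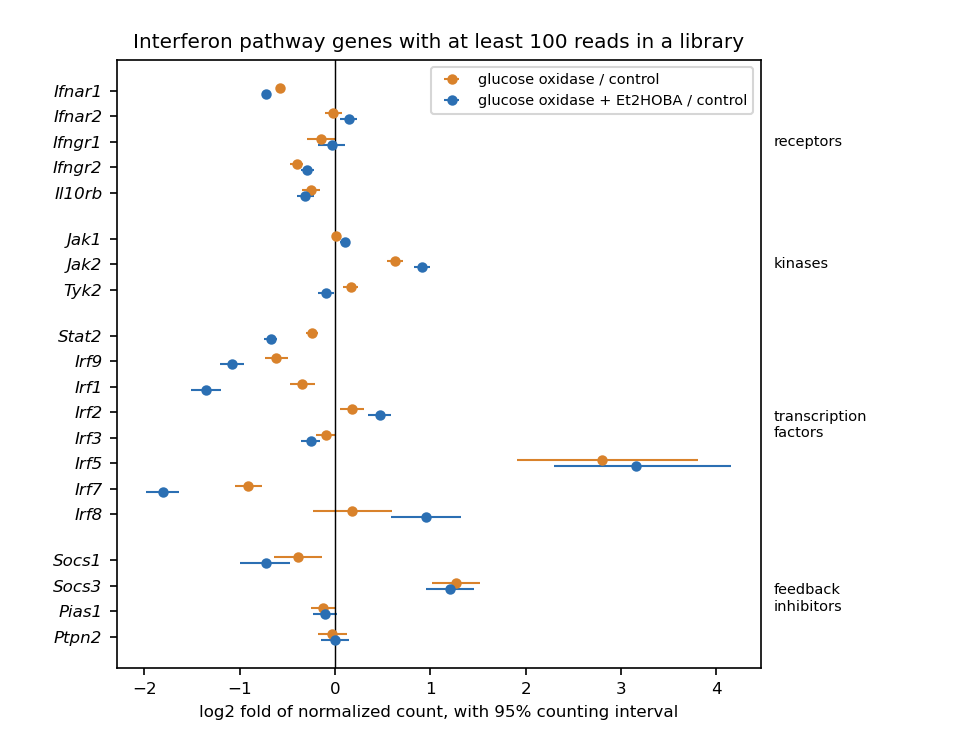
Log2 fold against control, with 95% counting intervals, for interferon pathway genes with at least 100 reads in a library, after GO (orange) and with GO plus Et2HOBA (blue). Irf7, Irf1 and Irf9 lie left of 0, Ifnar2 and Jak1 lie near 0 (their side depends on the scaling), and Irf5 and Socs3 lie right of it.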

How the data were processed

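Counts of mouse aortic endothelial RNA (stranded, polyadenylated) were analysed in 3 libraries, 1 per group. The submitters' processing notes name STAR, featureCounts and mm10, and versions, annotation and normalization are not given in the sources used here. Per the file headers, the authors deposited raw read counts of the control and the glucose oxidase plus Et2HOBA libraries, log-normalized values and their log2 differences. For glucose oxidase against control the authors deposited log2 differences alone, without a header, and for the treated libraries the same for 7 genes, none a member.

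Glucose oxidase counts were recovered by inverting the arcsinh-based variance-stabilizing formula with the control count as anchor. This gave values within 0.01 of a whole read for 100% of 18275 genes matched by symbol, against 3.31% with the control counts raised by 1. A further 12 genes were placed by whole reads. DESeq2 1.42.0 (vst, R 4.3.3), run on the recovered counts, gave the deposited differences within 2e-08. The recovery was also run on data simulated with the same type of formula, which checks the inversion but not whether the formula applies. No count model was fitted, because 1 library per group gives no spread.

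Size factors were medians of ratios (1.03, 0.965 and 1.04). Lengths, exon overlap and 50-base stretches came from GENCODE M21, where 17878 gene IDs had the same version and position. Python 3.11.15 and SciPy 1.17.1 were used. The members and lists were chosen with earlier results of these data known. By the rule for named genes, each role is given by its most abundant member, its lowest and highest ratio with both agents and any member not lower in both treated libraries. Usp18, Ube2l6, Ifi35, Nmi, Sp100, Ifit1, Ifit3, Bst2, Rsad2, Cmpk2, Samhd1, Adar, Znfx1, Oas2, Oas3, Parp12, Dtx3l, Jak1 and the promoters of Isg15, Ddx60 and Rsad2 were chosen after their values were seen. Alternatives were other scalings, pseudocounts, limits, a count minimum, the deposited scale and genes without shared stretches. A gene of the pathway list and a cell type marker are not reported here.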

Additional observations from a re-analysis of the deposited data

How the results depend on the processing

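No paired analysis was possible because each group has 1 library, and for the same reason no replicate could be left out. The median of the members stayed below 0 in each comparison under every alternative run. After glucose oxidase (GO), the number of the 46 members lower than control past the limit was 15. By the values of the authors' deposited table it was 6, with a median of -0.65. Those values are on the variance-stabilized scale, which DESeq2 run on the recovered counts reproduced within 2e-08. Both numbers thus rest on the same counts, transformed and scaled in different ways. A limit of 0.5 gave 36, and a limit of 2 gave 0. With GO plus Et2HOBA it was 35 against control, and 12 at a limit of 2. Between the treated libraries it was 13, with 30 for a limit of 0.5 and 0 for one of 2, and the deposited table for this pair held no member. Over the 22 members without a shared stretch, the numbers were 7, 15 and 4, where fewer genes enter. Total-count scaling put the median of all listed genes at -0.06, -0.13 and -0.08 and turned Isg20 and Oasl1 to the low side between the treated libraries, giving 45 of 46 lower. It moved Jak1 across 0 in each comparison. Size factors from protein-coding genes, chosen after the data were seen, left 15, 35 and 13 members past the limit. Depth limits Slfn8, Oasl1 and Ifnb1. With a pseudocount of 50, Ifne no longer passed the limit with both agents, Ifne and Ptpn6 no longer passed it between the treated libraries, and Irf5 moved from 2.07 to 1.09 after GO.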
